A study of Homo sapiens with 16 samples.

Results

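The genes described here encode 10 subunits of the SWI/SNF chromatin remodelling complexes: ARID1A, ARID1B, ARID2, PBRM1, BRD9, SMARCA4, SMARCA2, SMARCC1, SMARCC2 and SMARCD1. Their RNA was examined for peaks of N6-methyladenosine (m6A), a base modification of mRNA. Members were the regions of the merged list and the peaks of the 8 immunoprecipitation (IP) lists that lay wholly inside the GENCODE release 44 spans of these genes on hg38. This rule used position alone, though the genes were chosen with earlier results of these data known. The members came to 48 of 36970 regions and to 217 of 191974 peaks. Of the 48 regions, 46 held a peak in at least 1 list and 12 held one in all 8 lists. The other 2, in SMARCA2 and BRD9, held none. All 217 peaks lay in a merged region.

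MeRIP-seq pulls down RNA fragments with an anti-m6A antibody and sets them against unenriched input RNA. It was applied to total RNA of C4-2B, a human prostate cancer line sensitive to the drug enzalutamide, and of MDV-R, a resistant line made from C4-2B by serial passage in the drug and kept in it. Both carry the genotype label WT, and both were taken at day 3. Each line had 4 IP and 4 input libraries, 16 in all. Each line is a single culture history, so its differences from the other cannot be separated from those of passage and drug exposure. The labels do not say whether replicates were separate cultures, and p-values measure the spread between these samples alone.

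In the MDV-R samples the title names T24R2, another line, where the cell line field gives MDVR, and the field was used. As a check, the prostate luminal genes KLK2, FOLH1, HOXB13 and STEAP2 had a peak in all 8 lists, and KLK3 and TMPRSS2 had one in 4 MDV-R and 3 C4-2B lists. Of 8 urothelial genes 2 had any peak, UPK2 in all 8 lists and UPK3A in 2 C4-2B and 4 MDV-R lists, while UPK1A, UPK1B, KRT5, KRT13, KRT20 and PPARG had none in any list. List length was 13191 to 24746 peaks for C4-2B, whose replicate 1 was the shortest, and 23880 to 30645 for MDV-R. IP depth, recovered from the peak statistics, was 317000 to 412000 fragments in C4-2B and 322000 to 414000 in MDV-R. Input depth was 90.1 to 123 Mb of fragment sequence in C4-2B and 160 to 297 Mb in MDV-R, without overlap, so input depth and line cannot be told apart in any value that uses the input.

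SWI/SNF complexes use ATP to move or evict nucleosomes, which opens promoters and enhancers to transcription factors. Every complex holds 1 ATPase, SMARCA4 (BRG1) or SMARCA2 (BRM), on a core of SMARCC1, SMARCC2 and SMARCD proteins. ARID1A or ARID1B define the canonical BAF complex, ARID2 and PBRM1 the polybromo-associated PBAF complex, and BRD9 the non-canonical BAF complex. m6A is laid on nascent mRNA by the METTL3-METTL14 methyltransferase at the core sequence GGAC and its relatives, mostly in long internal exons, around stop codons and in 3′UTRs, and it is known to affect splicing, decay and translation of the transcript.

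Stretches of reference sequence from hg38 show where the core motif stood in the strongest regions described below. Each is read in the genome on the strand of the gene, 5′ to 3′, around the GGAC (capitals) nearest to the summit of the strongest peak of the region; regions of this kind without GGAC within 50 nt of that summit are not shown.

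ARID1A exon 20, chr1:26779557-26779580, plus strand: ggtacaccagGGACaacagaccag
ARID1B exon 20, chr6:157207342-157207365, plus strand: tccaactgtgGGACccaactcggt
ARID2 exon 15, chr12:45852303-45852326, plus strand: gaaccacaagGGACtttagatatc
PBRM1 exon 18, chr3:52609566-52609589, minus strand: agggagatgaGGACtctcatgtcc
SMARCA4 exon 35, chr19:11061773-11061796, plus strand: cccctctccaGGACcgctcaggaa
SMARCA2, intron of the canonical and 3′UTR of another transcript, chr9:2041583-2041606, plus strand: aattttgaggGGACcataaacttt

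The A of GGAC lay 25 nt after the summit in ARID1A, 18 nt before it in ARID1B, 34 nt after it in ARID2, 26 nt after it in PBRM1, 8 nt before it in SMARCA4 and 7 nt after it in SMARCA2. In ARID2 and PBRM1 the motif read GGACT. The SMARCA4 stretch crosses the start of the last exon. Its first 11 bases, among them the first G of GGAC, are the end of the intron, so the motif shown is that of the unspliced RNA. Whether the spliced mRNA also reads GGAC at this junction was not examined.

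Peaks that recurred in every list sat in the few long exons of these genes. The 10 canonical mRNAs hold 248 exons with a median length of 133 nt, and 20 of them (8.06%) reach 400 nt. Of the 12 regions called in all 8 lists, 10 had their strongest summit in a canonical exon, and all 10 of those exons were 400 nt or longer. The 228 shorter exons held 7 called regions, none of them in all 8 lists, although they add up to 31580 nt of mRNA against 32631 nt in the long exons. Over the whole series 96.4% of the regions in canonical exons that were called in all 8 lists lay in exons of at least 400 nt. Of all called regions in canonical exons, 14 of 21 (66.7%) lay in such exons in these genes, with a median exon of 784 nt, against 84% and 1449 nt over the series. Not every long exon held a called region. The last exon of SMARCC1 (3038 nt), that of PBRM1 (2869 nt) and that of SMARCD1 (1761 nt) held no called region.

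**Figure D1:**
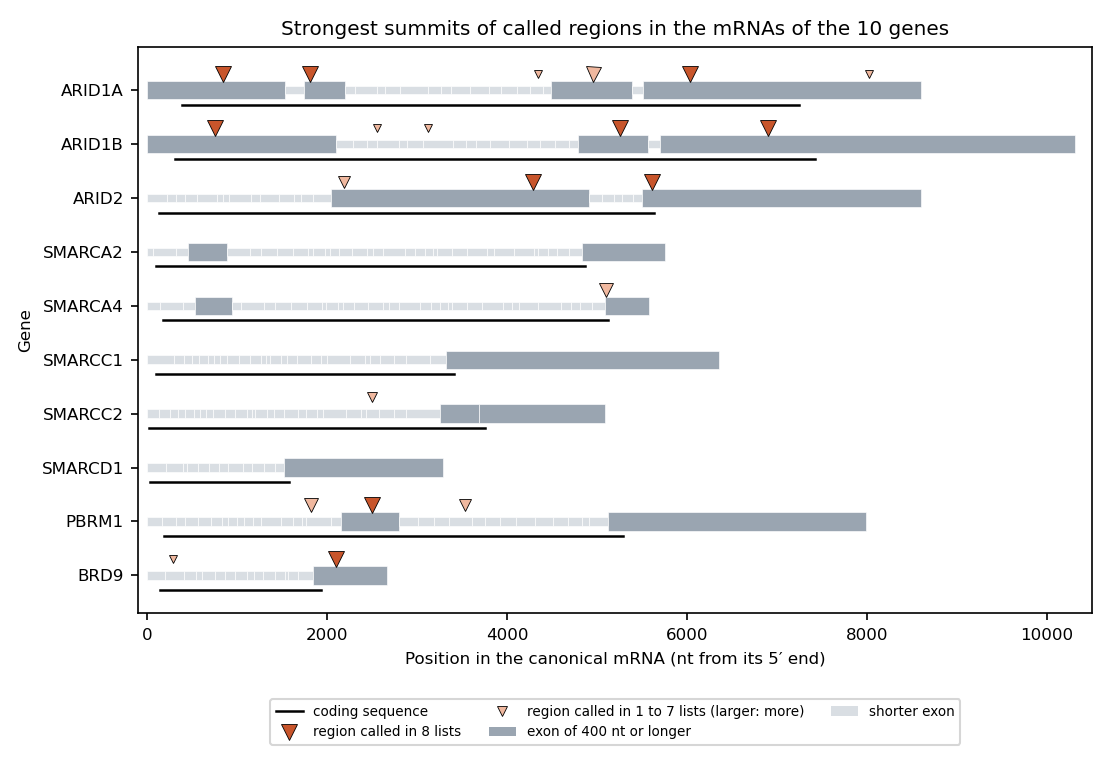
The canonical mRNA of each gene is drawn to scale in nt from its 5′ end, with exons of 400 nt or longer as tall dark bars, shorter exons as thin light bars and the coding sequence as a black line. Triangles mark the strongest summit of each called region in an exon. The 10 dark triangles, regions called in all 8 lists, all stand on tall bars, and SMARCA2, SMARCC1 and SMARCD1 have no triangle.

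By feature, 24 of the 46 called regions had their strongest summit in an exon of some transcript and 22 in an intron. Coding sequence took 19, 3′UTR 3, 5′UTR 1 and an exon of a non-coding transcript 1. Introns took 47.8% of called regions in these genes and 37.2% over all coding genes. Coding sequence took 41.3% and 33.2%, and 3′UTR 6.52% and 18.2%. These shares are not fully alike. Member summits were classed by the member gene alone, while over the series an exon of any coding gene came before an intron. Among the 22 intronic member regions are 5 of BRD9 with the summit also in ZDHHC11. Among the 12 regions called in all 8 lists, 9 were in coding sequence. The SWI/SNF genes are long, and their spans hold much intron, which a count of regions does not correct for.

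Which regions were called in 1 line and not in the other was asked next. A region of PBRM1 was called in 4 of 4 MDV-R lists and no C4-2B list, and no member region was called in 4 of 4 C4-2B lists and no MDV-R list. Over all 36076 called regions the shares with these patterns were 3.68% and 1.22%. Of the 46 member regions, 28 were called in more MDV-R than C4-2B lists, 2 in more C4-2B lists and 16 in as many of each. Over all called regions 49.7% were called in more MDV-R lists and 18.4% in more C4-2B lists. By Fisher's exact test the PBRM1 region had the lowest p that 4 lists against 4 allow, 0.0286. After Benjamini-Hochberg adjustment over all called regions this p became 0.584. As no lower p exists, no region of the series could pass the threshold, so the adjusted test cannot decide for member regions. With each list limited to its 13191 strongest peaks, the length of the shortest list, no member region was called in all lists of 1 line alone.

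**Figure D2:**
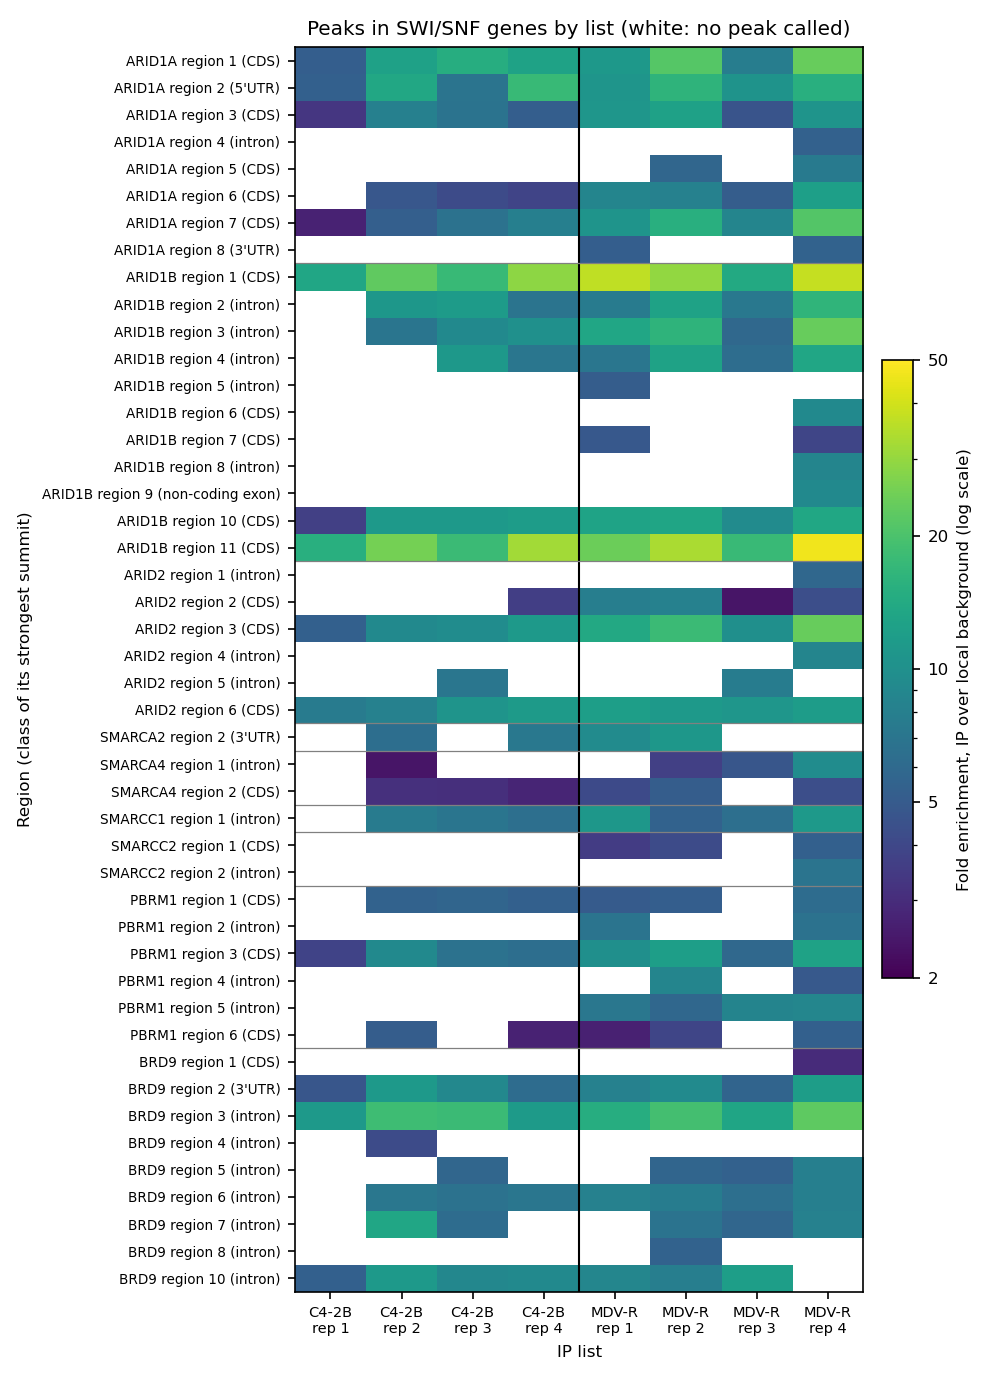
Each row is a called region of a SWI/SNF gene in the order of the transcript and each column an IP list, with C4-2B left and MDV-R right of the line. Colour gives the fold enrichment of the strongest peak on a log scale, and white marks no called peak. The first column, C4-2B replicate 1, holds 13 peaks and the last, MDV-R replicate 4, holds 40.

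Peaks per list in the 10 genes numbered 13, 25, 25 and 25 in C4-2B replicates 1 to 4 and 31, 33, 25 and 40 in MDV-R replicates 1 to 4. The ranges met at 25 peaks. Means were 22 ± 6.0 and 32.25 ± 6.18 (SD, n = 4). They differed by 10.2 peaks (exact two-sided permutation p = 0.114), which missed the threshold. Per 10000 peaks of a list the genes held 9.86, 10.1, 10.75 and 10.74 peaks in C4-2B replicates 1 to 4, with 12.98, 12.16, 9.67 and 13.05 in MDV-R (exact permutation p = 0.143). Without MDV-R replicate 3 the difference in peaks per list was 12.7 with an exact permutation p of 0.0286. Without any other library it was 7.25 to 11.2, with exact permutation p of 0.114 to 0.143, and 7.25 came without C4-2B replicate 1. MDV-R replicate 3 had the shallowest input of its line, and a link with this result was not tested.

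**Figure D3:**
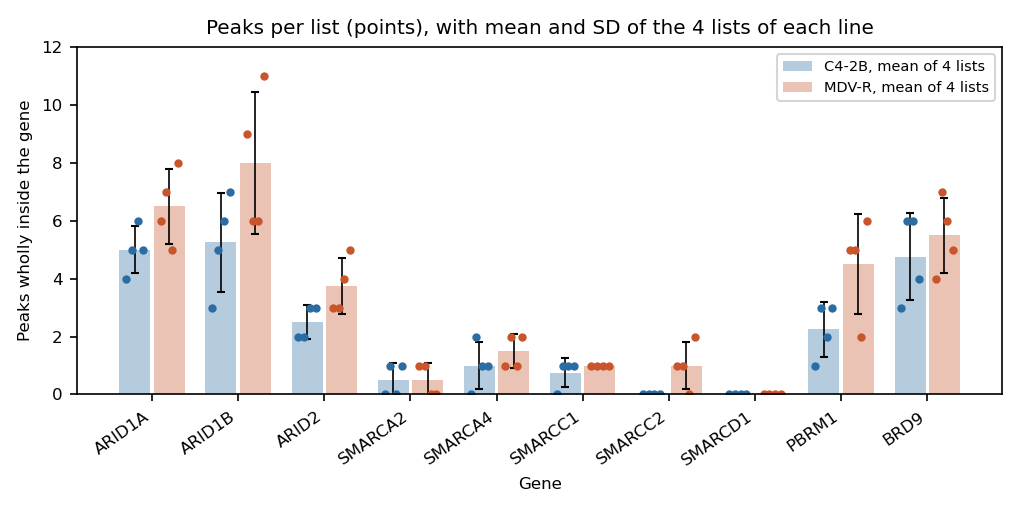
Bars give the mean number of peaks wholly inside each gene in the 4 lists of a line, error bars the SD and points the single lists. ARID1B had the most peaks, 3 to 7 in C4-2B and 6 to 11 in MDV-R, and SMARCD1 had 0 in every list.

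Single genes were also compared. ARID1B had 3, 5, 6 and 7 peaks in the C4-2B lists against 9, 6, 6 and 11 in MDV-R, ARID1A 4, 5, 6 and 5 against 6, 7, 5 and 8, and PBRM1 1, 3, 2 and 3 against 5, 5, 2 and 6. In each of these genes the lines overlapped. Exact permutation p-values for the 9 genes with a peak lay between 0.114 (PBRM1) and 1 (SMARCA2 and SMARCC1), and none of the 10 genes passed at an unadjusted p under 0.05. The share of all 11321 genes with more peaks in MDV-R at that level was 6.24%, with fewer 1.65%, and no gene passed after Benjamini-Hochberg adjustment (lowest adjusted p = 0.362).

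For regions called in all 8 lists the strength was compared between lines on 3 scales. Fold enrichment divides the IP pileup by the background expected from the input, after 1 is added to each. IP fragments are the pileup at the summit per 1000000 fragments of the library (CPM). Local background is that expected pileup divided by the mean of its library. It only approximates the abundance of the RNA, and in bulk RNA fewer transcripts per cell cannot be told apart from fewer cells that hold them. Over all 9327 such regions the median log2 difference, MDV-R minus C4-2B, was 0.44 for fold enrichment, −0.04 for IP fragments and −0.48 for local background, so the enrichments of the whole series were shifted toward MDV-R, and the lines' input depths did not overlap. In the 12 member regions the medians were 0.46, 0.17 and −0.35. Fold enrichment was higher in MDV-R by its mean in 12 of 12 (8 of 12 with each list centred on its median), as in 84.2% of all regions. Past the limma threshold (adjusted p under 0.05) were 1 of 12 member regions with higher fold enrichment, against 3.41% of all regions, and none with lower, against 0.225%. For IP fragments none of 12 was higher, against 14.3%, and 1 was lower, against 19.3%. For local background none was higher or lower by limma, against 1.66% and 11.0%. An unadjusted exact permutation p under 0.05 needs every list of 1 line to lie above every list of the other. For fold enrichment 1 of 12 member regions reached it, against 1038 of all 9327 regions. For IP fragments 3 of 12 did, against 2608, and for local background 1 of 12, against 1646. After adjustment no region of the series passed this test on any scale. With each list centred on its median, calls for fold enrichment over all regions went from 318 higher and 21 lower to 79 higher and 167 lower, those for local background from 155 higher and 1022 lower to 555 and 643, and no member region passed on either scale. For IP fragments the same centring moved the calls over all regions from 1334 higher and 1799 lower to 2169 (23.3%) and 2518 (27%). Among the 12 member regions 5 were then higher in MDV-R (ARID1A region 2, at the alternative 5′UTR exon, and exon 3, and ARID1B exons 1, 18 and 20) and 2 lower (both of BRD9), so the balance of member calls turned with this setting.

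**Figure D4:**
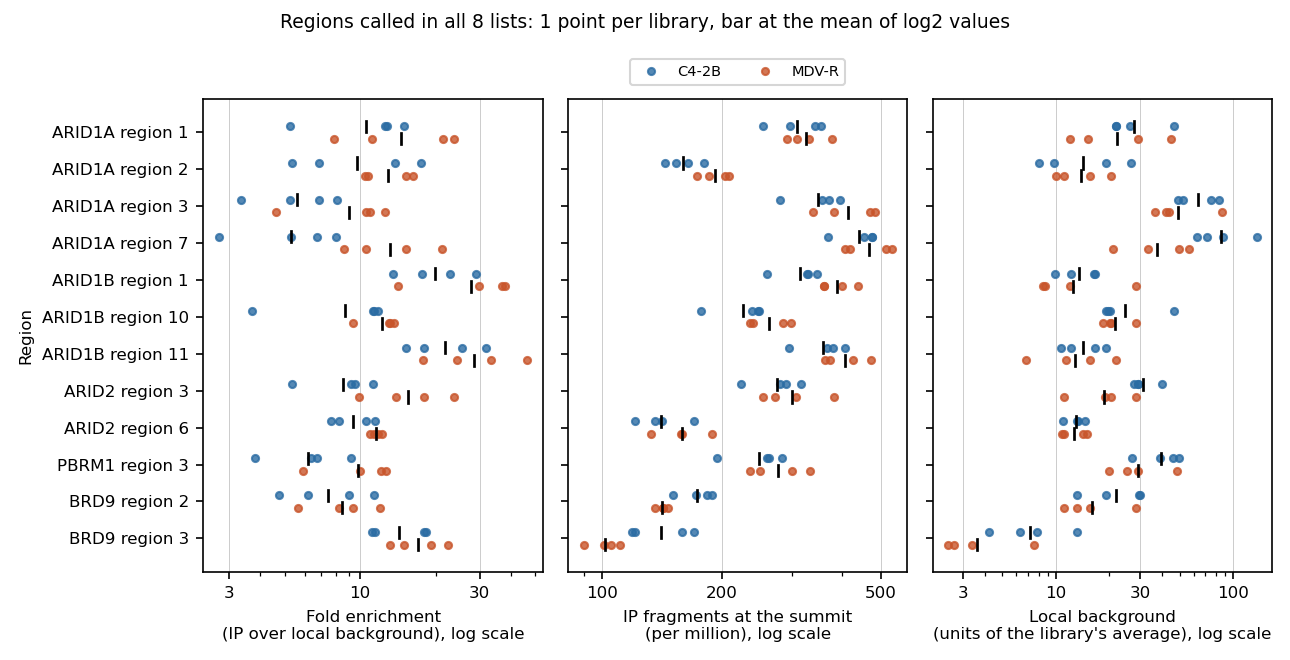
Points are single libraries of C4-2B (blue) and MDV-R (orange) for the 12 regions called in all 8 lists, on log axes, and black bars are means of log2 values. ARID1A region 7, in exon 20, is the region in which the lines stand apart in fold enrichment, 2.73 to 8.02 against 8.63 to 21.2, and in local background, and ARID1B region 1 and BRD9 regions 2 and 3 lie apart in IP fragments. Among all 9327 regions called in all 8 lists, the lines stood fully apart in 1038 for fold enrichment, 2608 for IP fragments and 1646 for local background. Regions are numbered along the transcript, and BRD9 region 2 is that of its 3′UTR.

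ARID1A, a subunit of canonical BAF and a frequent target of loss in cancer, had 8 regions, all called, 4 of them in all 8 lists. The region in its last exon, exon 20 (chr1:26778895-26781027, strongest summit in coding sequence 1210 nt before the stop codon in the mRNA, beside the GGAC shown above), differed between the lines. Fold enrichment was 2.73, 5.30, 6.75 and 8.02 in C4-2B and 10.6, 15.2, 8.63 and 21.2 in MDV-R replicates 1 to 4. Every MDV-R list stood above every C4-2B list. The ratio of the lines was 2.48 (log2 difference 1.31, SE 0.36, limma adjusted p = 0.0232), and 0.87 of the log2 difference lay beyond the median shift of all regions. IP fragments were 369, 455, 477 and 476 CPM in C4-2B and 517, 534, 420 and 408 in MDV-R, which overlapped (log2 difference 0.08, SE 0.17, limma adjusted p = 0.773). The local background was 136, 87.9, 71.6 and 62.4 times the library mean in C4-2B and 49.5, 33.1, 56.3 and 21.0 in MDV-R. All C4-2B values were above all MDV-R values, and the log2 difference of −1.20 (SE 0.43) had a limma adjusted p of 0.0689. The call for fold enrichment was lost when lists were centred on their medians (log2 difference 0.91, limma adjusted p = 0.0679). It was also lost without C4-2B replicate 1 (0.99, limma adjusted p = 0.117) or without MDV-R replicate 1, 2 or 4 (1.41, 1.24 and 1.08, with limma adjusted p of 0.059, 0.134 and 0.197). The exact permutation test could not keep any call, since its adjusted p here, 0.257, was the lowest over all regions.

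The strongest ARID1A region by rank within the lists covered exon 1 (chr1:26694039-26697534, summit 454 nt after the start codon), with a mean percentile of 91.6. Its fold enrichment was 5.25, 12.6, 14.9 and 12.8 in C4-2B and 11.1, 21.4, 7.86 and 23.8 in MDV-R. The lines overlapped (log2 difference 0.45, SE 0.36, limma adjusted p = 0.401). Of the others, the exon 3 region was called in all 8 lists at 3.34 to 8.09 in C4-2B and 4.62 to 12.6 in MDV-R. A region at an alternative 5′UTR exon, intronic in the canonical transcript, was also called in all 8 lists. The exon 18 region was called in 3 lists of C4-2B and 4 of MDV-R, and regions in exon 16 and in the 3′UTR in 2 MDV-R lists each.

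A further region, chr1:26692105-26693687, straddles the 5′ end of ARID1A and was not counted among the 48. It was called in all 8 lists, at 12.6, 19.9, 21.7 and 22.8 in C4-2B and 15.3, 28.6, 18.2 and 33.4 in MDV-R. Its strongest summit fell outside ARID1A in the lncRNA gene ENSG00000260063 on the other strand, 2908 nt upstream of the canonical transcript, and the peak lists give no strand.

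ARID1B, the paralog that takes the place of ARID1A in some canonical BAF complexes, held the strongest regions of the group. Its exon 20 region (chr6:157205999-157208539, summit 517 nt before the stop codon) had a mean percentile of 99.1, with fold enrichment of 15.3, 25.6, 17.9 and 31.8 in C4-2B and 24.3, 33.2, 17.8 and 46.5 in MDV-R. The lines overlapped (log2 difference 0.40, SE 0.36, limma adjusted p = 0.466). IP fragments were 294 to 406 CPM in C4-2B and 362 to 472 in MDV-R. The exon 1 region (chr6:156776610-156779471) reached a mean percentile of 98.3, at 13.5, 22.9, 17.6 and 28.9 against 36.7, 29.7, 14.1 and 37.9. The lncRNA gene ENSG00000271551 lies on the other strand there. In this region IP fragments did not overlap, 260, 328, 327 and 346 CPM in C4-2B and 399, 440, 360 and 360 in MDV-R, but the log2 difference of 0.31 (SE 0.17) did not pass (limma adjusted p = 0.156). It passed with lists centred on their medians (0.33, limma adjusted p = 0.00231) and in units of average coverage (0.42, limma adjusted p = 0.0361).

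Both paralogs were thus marked in all 8 lists in their first and last exons, and ARID1B also in exon 18 (3.70 to 11.8 in C4-2B and 9.40 to 13.6 in MDV-R), where ARID1A was called in 7 lists. They differed in the regions classed as intronic over all transcripts. ARID1B had 3 of these called in 6 or 7 lists, with 19 to 50 fragments at the summit, whereas that of ARID1A was called in MDV-R replicate 4 alone. This contrast depends on the annotation. The ARID1A region at an alternative 5′UTR exon, called in all 8 lists, is intronic in the canonical transcript. ARID1B spans 434.8 kb and ARID1A 88.87 kb. A further 5 regions of ARID1B were each called in 1 or 2 MDV-R lists and no C4-2B list, at 6 to 18 fragments.

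ARID2, the ARID subunit of PBAF, had 6 regions. Its exon 15 region (chr12:45851289-45852845, in an internal exon of 2861 nt, summit 1348 nt before the stop codon) had fold enrichment of 5.36, 9.23, 9.57 and 11.3 in C4-2B and 13.9, 17.9, 9.89 and 23.6 in MDV-R. The lines overlapped, since MDV-R replicate 3 lay below C4-2B replicate 4 (log2 difference 0.86, SE 0.36, limma adjusted p = 0.123). Without MDV-R replicate 3 this region and ARID1A exons 3 and 20 passed the limma threshold, 3 of 12 regions. In that fit 21.5% of all regions passed with higher fold enrichment in MDV-R. The region at the stop codon (chr12:45904764-45905436, summit 28 nt before it) had a narrow range, at 7.67, 8.26, 10.6 and 11.5 in C4-2B and 12.2, 11.4, 10.9 and 11.8 in MDV-R, with a log2 difference of 0.30 (SE 0.36, limma adjusted p = 0.585). Earlier in exon 15 a weaker region (chr12:45849914-45851058) was called in 1 C4-2B list and 4 MDV-R lists. Its fold enrichment was 3.64 in C4-2B replicate 4 and 7.92, 8.24, 2.41 and 4.31 in MDV-R replicates 1 to 4, from 24 to 37 fragments. Fisher's exact test gave an adjusted p of 0.997, though no region of the series could pass that test after adjustment. The other 3 regions were intronic. Of these, 2 were called in 1 MDV-R list each, at 5.84 and 8.62 from 7 and 14 fragments, and 1 in 1 list of each line, at 7.08 in C4-2B and 7.72 in MDV-R from 13 fragments each.

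PBRM1, the bromodomain subunit of PBAF, had 6 regions. Exon 18, an internal exon of 643 nt, held the region called in all 8 lists (chr3:52609398-52610188), at 3.80, 9.18, 6.70 and 6.39 in C4-2B and 9.99, 12.1, 5.92 and 12.7 in MDV-R. The lines overlapped (log2 difference 0.65, SE 0.36, limma adjusted p = 0.230). The region called in all 4 MDV-R lists and in no C4-2B list was intronic (chr3:52594310-52594637). In MDV-R replicates 1 to 4 its fold enrichment was 7.18, 5.85, 8.54 and 8.79, from 12, 16, 24 and 14 fragments at the summit. Its mean percentile within the lists was 32.5, and no C4-2B list holds a value for it. Its absence from a C4-2B list means only that no peak was called there at that depth. No GGAC lay within 50 nt of its strongest summit. A further 2 intronic regions were called in 2 MDV-R lists each and no C4-2B list, at 6.71 to 6.91 from 31 to 33 fragments and at 4.94 to 8.69 from 7 to 13. Regions in exons 16 and 22 were called in 6 and 5 lists.

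BRD9, the bromodomain subunit that defines non-canonical BAF, had 10 regions, 9 of them called. The 3′UTR region (chr5:863942-864717, summit 161 nt after the stop codon in exon 16) was called in all 8 lists, at 4.73, 11.4, 9.01 and 6.21 in C4-2B and 8.22, 9.37, 5.64 and 12 in MDV-R. The lines overlapped (log2 difference 0.20, SE 0.36, limma adjusted p = 0.725). Its IP fragments did not, at 151, 172, 189 and 183 CPM against 142, 146, 142 and 136, but the log2 difference of −0.29 (SE 0.17) missed the threshold (limma adjusted p = 0.191). It passed with lists centred on their medians (−0.27, limma adjusted p = 0.0146) and without C4-2B replicate 1 (−0.36, limma adjusted p = 0.0368). Just downstream, chr5:862653-863799 had its strongest summit 288 nt past the end of the canonical transcript, in an intron of a longer BRD9 transcript. It held the highest mean percentile of the gene, 77.4. IP fragments there were 119, 121, 159 and 170 CPM in C4-2B and 89.8, 105, 111 and 101 in MDV-R, and all C4-2B values lay above all MDV-R values. The log2 difference was −0.47 (SE 0.17, limma adjusted p = 0.0218). Fold enrichment overlapped, at 11.2, 18.3, 17.9 and 11.5 against 14.9, 19.1, 13.2 and 22.4 (log2 difference 0.25, limma adjusted p = 0.662), while the local background was 7.8, 4.18, 6.28 and 13.1 times the library mean against 3.37, 2.66, 7.51 and 2.47 (log2 difference −1.0, SE 0.46, limma adjusted p = 0.144). The call for IP fragments was lost in units of average coverage (log2 difference −0.36, limma adjusted p = 0.090), and without C4-2B replicate 3 (−0.41, limma adjusted p = 0.0946), C4-2B replicate 4 (−0.38, 0.121) or MDV-R replicate 1 (−0.41, 0.0956). The exact permutation test could not keep any call, since its adjusted p here, 0.102, was the lowest over all regions.

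Altogether 7 of the 9 called BRD9 regions lay downstream of its canonical transcript. At 5 of them, with 23 of the gene's 41 peaks, the strongest summit also lay in ZDHHC11, a gene for a protein acyltransferase on the same strand, so these peaks cannot be assigned to BRD9. They were small, with 8 to 23 fragments. In 1 of these regions (chr5:859489-859961) the strongest peak, of MDV-R replicate 4, had its summit in the neighbouring region (chr5:858497-859354). That peak was called in both regions, and its summit alone placed the first of them in ZDHHC11. The remaining regions of the gene were each called in 1 list, 1 downstream in C4-2B (4.16, 10 fragments) and 1 in exon 2 in MDV-R (2.98, 45 fragments).

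The ATPases held few called peaks, which does not measure how much m6A their RNA carries. SMARCA4 had a region at its stop codon (chr19:11061531-11062043, exon 35, summit 21 nt before the stop codon), called in C4-2B replicates 2 to 4 at 3.12, 3.08 and 2.80 and in MDV-R replicates 1, 2 and 4 at 4.12, 5.18 and 4.31. The fragments in these lists numbered 74, 68 and 68 in C4-2B and 39, 42 and 40 in MDV-R. With regions called in at least 3 lists of each line included, this SMARCA4 region passed the limma threshold for lower IP fragments in MDV-R (log2 difference −0.823, limma adjusted p = 0.000727). It also passed for lower local background (−1.44, limma adjusted p = 0.0453). Only 3 lists of each line entered these values. Of all regions in these fits, 20.1% were lower in IP fragments and 7.21% in local background. An intronic region of SMARCA4 was called in 1 list of C4-2B and 3 of MDV-R. SMARCA2 had 1 called region (chr9:2041342-2041751), in 2 lists of each line, with fold enrichment of 6.43 and 7.27 in C4-2B replicates 2 and 4 and 9.48 and 11.0 in MDV-R replicates 1 and 2, from 16 to 20 fragments. It lay in the 3′UTR of a transcript other than the canonical one.

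The core subunits held few peaks over the 8 lists, 7 in SMARCC1, 4 in SMARCC2 and 0 in SMARCD1, beside 10 in SMARCA4 and 4 in SMARCA2. SMARCC1 had 1 region, intronic (chr3:47731047-47731714), called in 3 C4-2B lists at 7.66, 7.0 and 6.52 and in 4 MDV-R lists at 11.0, 5.51, 6.49 and 11.4, which overlapped. SMARCC2 had no peak in any C4-2B list. Its exon 24 region (chr12:56169636-56170125) was called in MDV-R replicates 1, 2 and 4 at 3.55, 4.17 and 5.38, with 76 fragments at the summit in each. The adjusted p was 0.997 by Fisher's exact test, which no region of the series could pass. The lncRNA gene ENSG00000258199 overlaps this region on the same strand. Exon 24 is 136 nt long. An intronic region was called in 1 MDV-R list, at 6.91 from 29 fragments. SMARCD1 had no region inside its span. A region across its 5′ end (chr12:50084783-50085555), with the strongest summit 157 nt upstream of the SMARCD1 transcript, was called in all 8 lists at 6.39, 10.3, 9.94 and 9.03 in C4-2B and 9.25, 13.7, 7.85 and 12.3 in MDV-R, which overlapped (log2 difference 0.26, SE 0.36, limma adjusted p = 0.636).

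The core motif was searched at the summits. Among exonic peaks of the 10 genes, 11 to 24 per list, GGAC lay within 50 nt of the summit on the mRNA strand in 43.24 ± 5.58% of summits for C4-2B and in 36.68 ± 2.34% for MDV-R (SD, n = 4). The difference of −6.56 percentage points did not pass (exact two-sided permutation p = 0.114), and it turned to 3.36 points higher in MDV-R with windows of 25 nt (exact permutation p = 0.257). Leaving out C4-2B replicate 1 gave −8.85 points (exact permutation p = 0.0286). Leaving out any other library gave −7.15 to −4.31 points (exact permutation p of 0.114 to 0.2). At 300 nt to either side of the summit, equally wide windows held GGAC in 26.12 ± 4.89% and 27.45 ± 3.15%, and the opposite strand in 28.94 ± 4.67% and 26.91 ± 4.13%. Over all exonic summits of the lists the shares were 47.8 ± 0.81% and 46.94 ± 1.52%. By region, 8 of the 24 exonic members and 4 of the 12 called in all 8 lists had GGAC at the strongest summit, the 4 being ARID1A exon 20, ARID1B exon 20, ARID2 exon 15 and PBRM1 exon 18, whose sequences stand above. Introns held 30.85 ± 12.2% of the genes' peaks for C4-2B and 40.67 ± 6.53% for MDV-R, a difference of 9.82 points that did not pass (exact permutation p = 0.2), with 26.92 ± 4.71% and 29.71 ± 1.80% over all peaks in coding genes. The lowest intron share was 15.4%, in C4-2B replicate 1. Over the series an exon of any coding gene came before an intron, so the shares of the 10 genes are not fully comparable with it. Peaks of BRD9 in regions with the summit also in ZDHHC11, 23 in all, are among those of the 10 genes.

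The other subunits of the complexes were counted in the same way. Of 19 further genes, among them SMARCB1, SMARCE1, ACTL6A, the DPF and BCL7 families, SS18 and BICRA, 12 held a called region, 31 in all, of which 12 were called in all 8 lists. None of these 12 passed the limma threshold for fold enrichment in either direction, 2 were higher and 2 lower in IP fragments (14.3% and 19.3% over all regions), and none passed in local background. In the main 10 genes the counts were 1 higher for fold enrichment and 1 lower for IP fragments, also of 12. The median log2 difference of fold enrichment was 0.41 in the other subunits, 0.46 in the 10 genes and 0.44 over all regions. The region of the other subunits called in 4 MDV-R and no C4-2B lists was in ACTB, which encodes β-actin, with fold enrichment of 1.92 to 4.37.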

How the data were processed

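The authors aligned MeRIP-seq reads to hg38 with STAR (2.7.0) and GENCODE release 39, removed multiply mapped and duplicate reads by SAMtools (1.10) and used MACS2 (3.0.0a6) to call peaks of each IP library against input, per the methods and the submitters' processing notes. Each deposited list gives per peak a position, a score, a fold enrichment (the ratio between IP and expected pileup) and −log10 p and −log10 q values. A deposited merged list gives positions alone. The authors' differential test on read counts was not run here.

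IP fragments and background were solved from each deposited ratio and −log10 p. Whole numbers of fragments fit 99.99 to 100% of peaks; 4 peaks could not be solved. The background steps and the shortest peaks gave lengths of 239 to 293 nt, not the stated extension of 100 nt, so a pileup unit is a fragment, or a read extended to that length; the tests planned as tags used these. Depth assumes the stated genome size of 300 Mb. One fragment was worth 2.41 to 3.15 CPM, as computed here. Removal of duplicates caps pileups at strong peaks, and shallow libraries leave weak peaks uncalled.

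A region was called in a list when a peak overlapped it by 1 bp, and took its strongest peak. Summits were classed as CDS before 3′UTR before 5′UTR before other exon before intron with GENCODE release 44, over all transcripts. For members these were the transcripts of the member gene, and for the whole series those of any coding gene. Exon numbers and distances are those of the canonical transcript. Motif windows were read in the genome, not in spliced RNA. Peaks carry no strand, so overlapping genes were not told apart. Region strength was fitted with limma (3.58.1) on log2 values of 4 against 4 libraries, over all 9327 regions called in all 8 lists, with Benjamini-Hochberg adjustment at 0.05; variances of fold enrichment and fragments were drawn to a common value, so all regions share an SE. Calls were compared with Fisher's exact test and lists with exact permutation tests over 70 arrangements (smallest p 0.0286). Scripts were tested on simulated data.

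All 10 genes are named. Described in full are, per gene, the region that ranked highest by −log10 p, as a percentile averaged over lists, regions called in at least 3 more lists of 1 line than of the other, and regions past the limma threshold for fold enrichment. Other regions called in all 8 lists, the weaker regions and 2 regions that straddle a gene's end are given beside them, chosen after their values were seen. The members and the gene lists were chosen with earlier results of these data known. Replicate numbers did not pair the samples: correlations of deviations between same-numbered libraries lay between −0.0749 and 0.0436. Alternatives were thresholds, list size, overlap, an own union, other scales and fits, and leaving out each library. Some prostate marker genes of the check on cell type are not reported here.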

Additional observations from a re-analysis of the deposited data

Results flagged for a closer look

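The member peaks of C4-2B replicate 1 numbered 13, against 25 in each of the other 3 C4-2B lists, and stood apart from them. Per 10000 peaks of the list the value was 9.86, within the range of the other lists. In the same library SMARCC1 had 0 peaks against 1 in each of the other C4-2B lists. The local background at ARID2 exon 15 (region 3 of that gene) was 39.9 units in C4-2B replicate 1 and 27.7 to 29.2 in the others of its line. Of 67 groups of 4 values tested, 3 were set apart in this way. Chance flags about 1 in 20 groups of continuous values. That rate does not hold for counts in which 3 values are equal, since the other value is then flagged whatever the gap. Both flags on peak counts are of this kind. The fold enrichment of ARID1A exon 20 differed between the lines by 1.31 on the log2 scale, with limma over all regions.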

How the results depend on the processing

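The calls in these genes were few and moved with the setting. The count of regions called in all lists of MDV-R alone was 1, was 0 with lists limited to the shortest, 2 with at least 3 lists of 1 line and none of the other, 2 with 4 lists of 1 line and at most 1 of the other, and 1 to 2 with each library left out (2 without C4-2B replicate 4 or MDV-R replicate 3). The count with higher fold enrichment was 1, and was 0 with lists centred on their medians. It was 0 in the exact permutation test, which no region of the series passed after adjustment on any scale. With each library left out it was 0 to 3 (0 without C4-2B replicate 1 or MDV-R replicate 1, 2 or 4, and 3 of 12 without MDV-R replicate 3, against 21.5% of all regions). The count with higher IP fragments was 0, was 5 of 12 after centring (23.3% of all regions) and 1 in units of average coverage (19.8% of all regions, chosen after seeing the data). With each library left out it was 0 to 1 (1 of 17 without C4-2B replicate 1, against 13.3% of all regions). The count with lower IP fragments was 1, was 2 after centring (27%), 3 of 20 with regions called in at least 3 lists of each line (20.1%), 0 in the exact permutation test and 0 in units of average coverage. With each library left out it was 0 to 3 (3 of 17 without C4-2B replicate 1, against 24% of all regions, and 0 without C4-2B replicates 3 or 4 or MDV-R replicate 1). The count with lower local background was 0, and was 1 of 12 with limma's trend and robust options (15.9% of all regions). It was 1 of 20 with regions called in at least 3 lists of each line (7.21%) and 1 of 12 with lists limited to the shortest (14%). With each library left out it was 0 to 3 (3 of 12 without MDV-R replicate 3, against 31% of all regions). The difference in member peaks per list was 7.25 to 12.7 with each library left out. That of the intron share was 4.67 to 14.2 points, and that of the GGAC share −8.85 to −4.31 points. For the GGAC share the exact permutation p was 0.0286 without C4-2B replicate 1 (−8.85) and 0.114 to 0.2 without any other library. With windows of 25 nt the GGAC difference was 3.36 points. The cause of these changes was not tested. With the replicate number as a block, limma called 1 region higher in fold enrichment, 1 lower in IP fragments and 0 in local background, and exact sign-flip permutation tests over the pairs gave p = 0.25, 0.125 and 0.25 for peaks, intron share and GGAC share (smallest 0.125), so the block changed no call. Requiring −log10 q of at least 5, or 50% overlap, merging the lists anew and membership by 1 bp changed no count of calls by more than 1.5 times. Most weak regions rest on under 25 fragments.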

Other observations

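Other families of chromatin remodellers were counted beside the SWI/SNF genes. Of 15 genes of the ISWI, CHD, INO80 and ATRX groups, 12 held a called region, 58 regions in all, and 24 of these were called in all 8 lists. For fold enrichment 1 of 24 was higher in MDV-R and none lower by limma, against 3.41% and 0.225% of all regions. For IP fragments 1 was higher and 8 lower, against 14.3% and 19.3%, and for local background none was higher and 5 were lower, against 1.66% and 11.0%. The region with higher fold enrichment lay in CHD9, a chromodomain helicase, with 6.74 to 17.7 in C4-2B and 28.0 to 35.2 in MDV-R (chr16:53323982-53325211, log2 difference 1.31, SE 0.36, limma adjusted p = 0.0228). Regions called in 4 MDV-R and no C4-2B lists numbered 4 of 58, against 3.68% of all called regions, with 2 in ATRX, the histone chaperone partner of DAXX, 1 in CHD6 and 1 more in CHD9. Their fold enrichment was 5.14 to 8.05 in ATRX, 5.05 to 6.61 in CHD6 and 5.64 to 10.1 in CHD9.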
